A study of Mus musculus with 6 samples.

Results

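The BCL2 family genes described here encode the proteins that decide, at the mitochondrial outer membrane, whether a cell lives or undergoes apoptosis. The members were 10 genes chosen by symbol: Bcl2, Bcl2l1, Bcl2l2, Mcl1, Bak1, Bid, Bad, Bcl2l11, Bmf and Bik, which leaves Bax and Bbc3 aside. All 10 were found among the 19844 genes of the table, and all 10 passed the filter on low values, at least 1 FPKM in at least 3 of 6 libraries. FPKM counts fragments relative to transcript length and library size, so levels of different genes can be set side by side.

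The data are poly-A RNA sequencing of distal colon from 3 ChREBP knockout and 3 wild-type C57BL6 mice. ChREBP, encoded by Mlxipl, is a transcription factor that responds to glucose. Every mouse of both groups had received azoxymethane, a carcinogen, with dextran sulfate sodium, which injures the colon lining, and was sampled on day 17 of that course. The labels give no age, and they do not say which part of the gene was removed, in which cells, or by which driver.

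In mammalian cells the family has opposing arms. Survival proteins such as BCL2 and MCL1 hold the effectors BAX and BAK1 in check. The BH3-only proteins, which share a single short helix with the rest of the family, are switched on by stress and either occupy the survival proteins or engage the effectors directly. Active effectors open the outer membrane, cytochrome c escapes, and caspases are activated. The colon epithelium renews itself continually, and apoptosis after DNA damage in the crypt runs through this pathway.

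The libraries were alike in depth, at an estimated 17700000 to 18400000 reads each. Mlxipl read 3.40, 5.66 and 5.04 FPKM in the knockout libraries, against 5.84, 7.49 and 7.27 FPKM in wild type, so the targeted transcript was still present, every knockout value lay below every wild-type value, and the difference was not called (limma adjusted p = 0.9995). Although the labels call all 6 mice female, the Y-linked Eif2s3y lay between 23.3 and 30.8 FPKM and Xist, which coats the inactive X chromosome in females, between 0.02 and 0.04 FPKM in all 6 libraries. The epithelial markers Epcam, Krt8 and Cdh1 were high everywhere, and the 10 colon epithelium markers summed to between 6438 and 7549 FPKM in knockouts and between 6202 and 7425 FPKM in wild type. Both groups also held markers of smooth muscle, fibroblasts, macrophages and B cells, as whole colon tissue does.

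No difference between knockout and wild-type colon was called for any of the 10 members. limma called 0 of 10 at an adjusted p under 0.05 over 13247 tested genes, beside 0.0151% of all tested genes called, and the adjusted p was 0.9995 for each member. At an unadjusted p under 0.05 the count was also 0 of 10, beside 3.40% of all tested genes. The knockout and wild-type values overlapped for each of the 10 members, whereas in 8.67% of tested genes they did not. The knockout mean lay between 84.1% (Bik) and 105.7% (Bmf) of the wild-type mean. A level in bulk tissue cannot tell fewer cells of a type from less RNA per cell, and this holds for every value here.

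Among the survival genes, Mcl1 was by far the most abundant. It encodes a short-lived protein that holds BAK1 and several BH3-only proteins. Mcl1 read 130, 147 and 159 FPKM in the knockout libraries, against 181, 153 and 153 FPKM in wild type. The lowest value was a knockout and the highest a wild type, but the highest knockout lay above 2 of the wild types. Means were 146 ± 14.6 FPKM in knockouts and 162 ± 15.8 FPKM in wild type (SD, n = 3 each), with a log2 fold change of -0.16, a standard error of 0.12 and a 95% limma interval of -0.42 to 0.11. Every log2 fold change here is taken as knockout minus wild type after adding 1 to each FPKM value, and this addition damps the differences of genes at low levels. Taken back from logs, that interval spans ratios of 0.745 to 1.08.

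Bcl2l1, whose long splice form is the survival protein BCL-XL and whose short form promotes death, read 26.7, 26.7 and 22.4 FPKM in knockouts, against 28.2, 30.5 and 26.0 FPKM in wild type. Knockout replicate 3 was the lowest of the 6, and the other 2 knockouts sat just above the lowest wild type. This gave a log2 fold change of -0.15 (SE 0.11, 95% interval -0.41 to 0.10). The deposited value is 1 number per gene, so the splice forms cannot be told apart. Bcl2l2, which encodes the survival protein BCL-w, was the steadiest member, with a coefficient of variation of 6.24% over the 6 libraries. Its values were 18.5, 18.5 and 21.4 FPKM in knockouts and 18.2, 19.1 and 19.9 FPKM in wild type, a log2 fold change of 0.02 (SE 0.10, 95% interval -0.20 to 0.25).

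Bcl2, the founding survival gene and strongly expressed in resting lymphocytes, was the least abundant of the 4 survival members. It read 3.38, 3.41 and 3.59 FPKM in knockouts, against 4.05, 4.91 and 2.53 FPKM in wild type. The knockouts lay close together, inside a wild-type range that held both the highest and the lowest value. Between the groups this was a log2 fold change of -0.08 (SE 0.19, 95% interval -0.52 to 0.35). Without wild-type replicate 2 the sign turned (0.08), and without wild-type replicate 3 the log2 fold change was -0.29 (limma adjusted p = 0.9999). Over the fits that left out 1 library, the smallest unadjusted limma p of Bcl2 was 0.0596.

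Bcl2 and the B cell markers peaked in the same library. The summed level of 5 B cell markers (Ms4a1, Cd79a, Cd79b, Cr2 and Pax5) was 67.6, 56.1 and 48.3 FPKM in knockouts and 72.5, 104.8 and 19.4 FPKM in wild type. Wild-type replicate 2 was highest and wild-type replicate 3 lowest for both the markers and Bcl2, while the 3 knockouts lay between them. Among the knockouts the order was opposite, with replicate 3 lowest for the markers and highest for Bcl2. None of the 5 markers was called, and 3 had positive and 2 negative log2 fold changes. Summed T cell markers also peaked in wild-type replicate 2 (20.1 FPKM) but were lowest in knockout replicate 3 (10.7 FPKM). The B cell list was set beside Bcl2 after the values were seen, and the part of lymphocytes in the Bcl2 level was not tested.

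**Figure D1:**
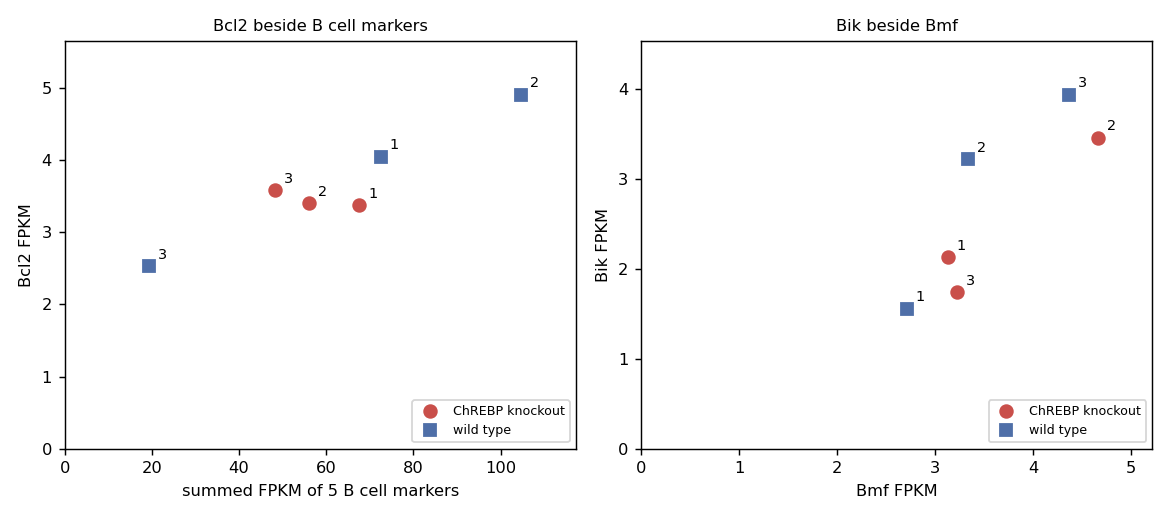
Left, Bcl2 FPKM against the summed FPKM of 5 B cell markers; right, Bik FPKM against Bmf FPKM. Each point is 1 library, numbered by replicate, with knockouts as red circles and wild types as blue squares. Wild-type replicate 2 (104.8 FPKM of markers, 4.91 FPKM of Bcl2) and wild-type replicate 3 (19.4 and 2.53) mark the ends of the left plot.

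The effector Bak1 averaged 114 FPKM over the 6 libraries, beside 154 FPKM for Mcl1. BAK1 sits in the outer membrane and oligomerises there once released. Bak1 read 132, 119 and 98.2 FPKM in knockouts, against 109, 127 and 97.2 FPKM in wild type, with 1 low library in each group. Means were 116 ± 17.01 FPKM in knockouts and 111 ± 15.1 FPKM in wild type, a log2 fold change of 0.07 (SE 0.14, 95% interval -0.26 to 0.40). Its sister effector Bax, which is not a member, read 29.5, 34.0 and 31.3 FPKM in knockouts and 33.8, 29.7 and 29.7 FPKM in wild type, a log2 fold change of 0.02 (95% interval -0.21 to 0.25). Bak1 transcript exceeded Bax transcript in every library, by 4.47, 3.51 and 3.14 times in knockouts and by 3.21, 4.27 and 3.27 times in wild type.

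Of the 5 BH3-only genes, Bad was the most abundant. BAD is held in the cytosol by 14-3-3 proteins while survival kinases keep it phosphorylated. Bad read 28.3, 31.7 and 26.2 FPKM in knockouts, against 28.5, 26.3 and 32.6 FPKM in wild type, and the groups covered nearly the same range. The log2 fold change was -0.02 (SE 0.11, 95% interval -0.28 to 0.25). In the GENCODE M21 annotation 4 of the 10 members share exonic sequence with another gene. An exon of Bad overlaps one of Gpr137 on the opposite strand by 517 bases. No step that marks strand is named in the protocol, so some reads of these 2 genes may not be told apart. Gpr137 read 15.6, 24.6 and 17.9 FPKM in knockouts and 14.1, 16.4 and 19.9 FPKM in wild type. The other overlaps are those of Bcl2 with an antisense RNA (497 bases), of Bcl2l2 with Gm20521 on its own strand (440 bases) and of Bak1 with Ggnbp1 on the opposite strand (177 bases), and Ggnbp1 stayed between 0.58 and 1.32 FPKM.

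Bid had the smallest p of the 10 members, and it still did not pass. Caspase-8 cleaves BID downstream of death receptors, which links that arm to the mitochondrion. Bid read 7.53, 6.72 and 6.30 FPKM in knockouts, against 7.29, 7.59 and 9.34 FPKM in wild type. Knockout replicate 1 lay among the wild types and wild-type replicate 3 stood above the rest. Means were 6.85 ± 0.625 FPKM in knockouts and 8.07 ± 1.11 FPKM in wild type, a log2 fold change of -0.21 (SE 0.13, 95% interval -0.50 to 0.09). Of all tested genes, 11.9% had a smaller p. Without wild-type replicate 3 the log2 fold change of Bid was -0.11.

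Bcl2l11 encodes BIM, which binds all survival proteins and acts in the removal of lymphocytes and of cells that lose growth factor signals. It read 4.61, 5.31 and 5.45 FPKM in knockouts, against 5.09, 5.91 and 5.86 FPKM in wild type. The lowest library was a knockout, and the other 2 knockouts fell between the lowest wild type and its 2 companions. The log2 fold change was -0.11 (SE 0.12, 95% interval -0.38 to 0.15).

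Among the BH3-only genes, Bmf and Bik were the lowest and varied most between mice. BMF is tied to the cytoskeleton through dynein light chain and is released when cells lose anchorage, and BIK acts at the endoplasmic reticulum. Bmf read 3.13, 4.66 and 3.22 FPKM in knockouts, against 2.71, 3.34 and 4.37 FPKM in wild type. Bik read 2.13, 3.46 and 1.74 FPKM in knockouts, against 1.56, 3.22 and 3.94 FPKM in wild type. Knockout replicate 2 and wild-type replicate 3 were the 2 highest libraries for both genes, and wild-type replicate 1 was the lowest for both. The log2 fold changes were 0.06 (SE 0.18, 95% interval -0.36 to 0.49) for Bmf and -0.16 (SE 0.27, 95% interval -0.79 to 0.47) for Bik. Bik varied by 37.1% over the 6 libraries, as a coefficient of variation. At the estimated depth and its annotated transcript length of 942 bases, Bik rests on about 27 to 66 reads per library, so that counting error by itself comes to 19.2% in the lowest.

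**Figure D2:**
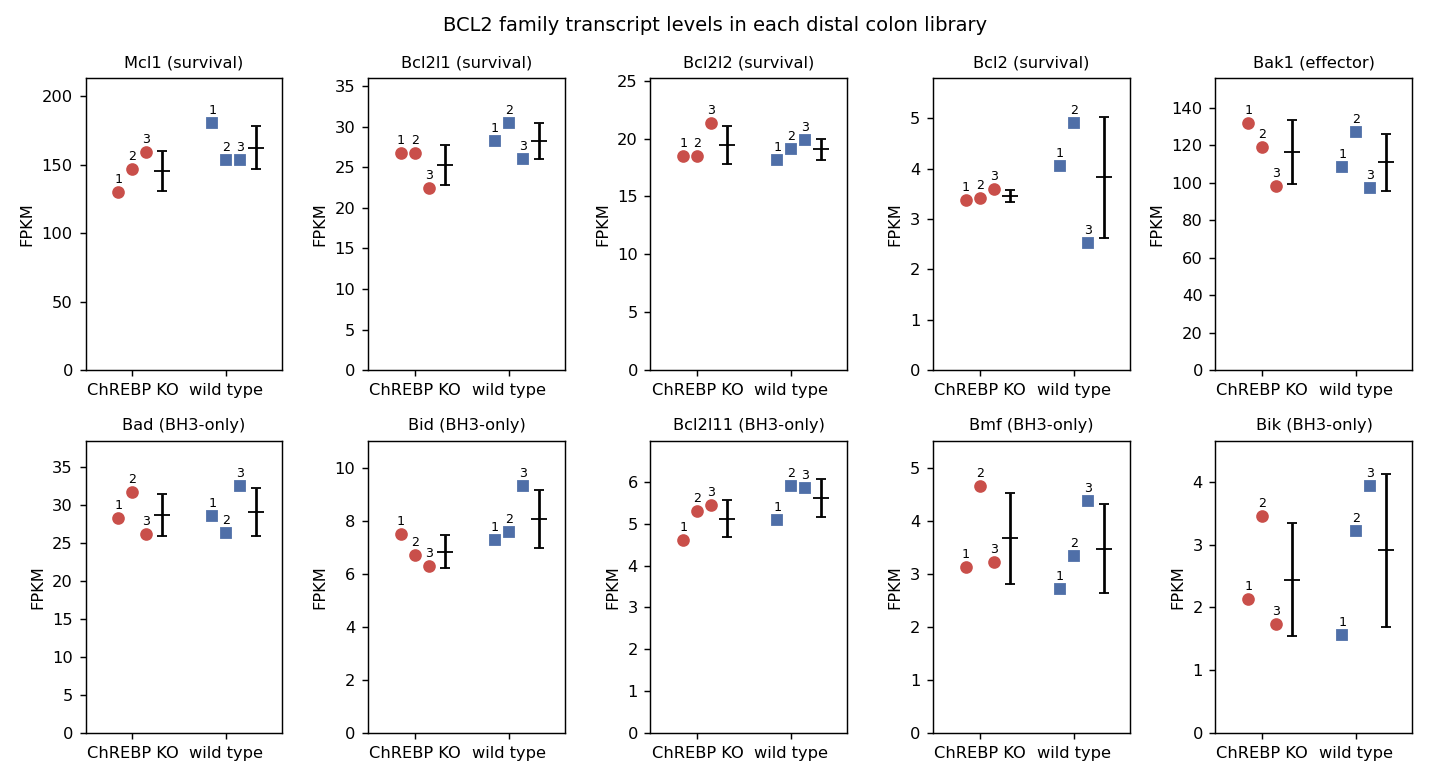
FPKM of each member in every library, on axes that start at 0; points are single libraries numbered by replicate, and the bar beside each group is the mean ± SD (n = 3). Knockout points (red circles) and wild-type points (blue squares) overlap in all 10 panels.

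The intervals set limits on what could have been missed. On the log2(FPKM + 1) scale all 10 intervals lay within a 2-fold change in either direction, as did 97.0% of those of all tested genes. The widest was that of Bik. With a pseudocount of 0.1 in place of 1, the interval of Bik ran from -1.07 to 0.66 and that of Bcl2 from -0.64 to 0.45. A 2-fold lower level of Bik lay within its interval on that scale. The narrowest interval on the log2(FPKM + 1) scale was that of Bcl2l2, from -0.20 to 0.25, and the 3 widest were those of Bmf, Bcl2 and Bik, the least abundant members.

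**Figure D3:**
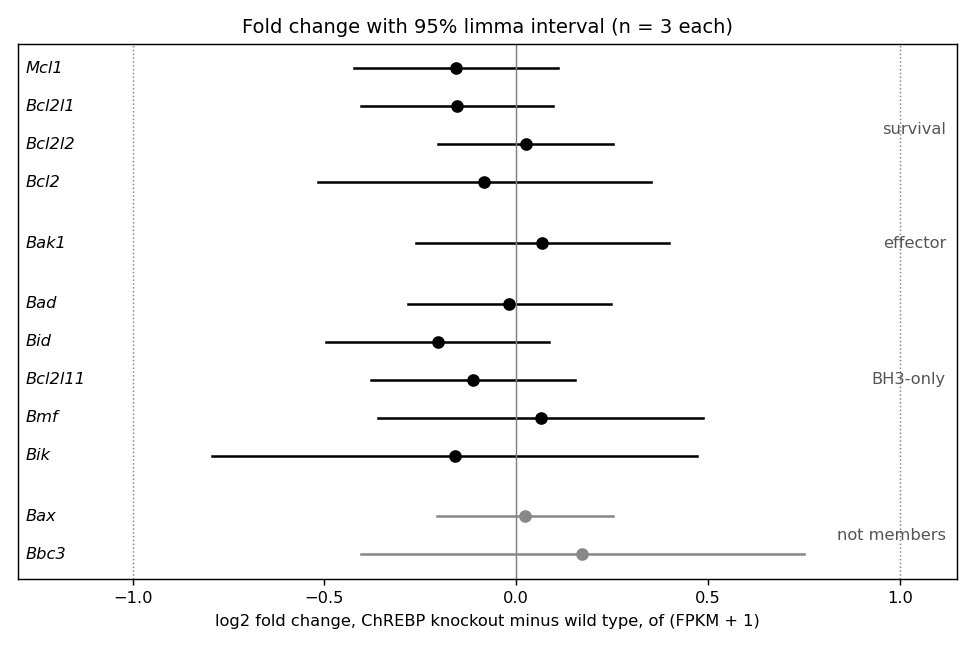
Log2 fold change of each member with its 95% limma interval, with positive values higher in knockouts, on the log2(FPKM + 1) scale; dotted lines mark a 2-fold change, and Bax and Bbc3 are drawn in grey for reference. Every interval crosses 0, and that of Bik, from -0.79 to 0.47, is the widest among the 10 members.

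Of the 10 log2 fold changes 7 were negative and 3 positive, with a median of -0.10, beside a median of 0.01 and 47.3% negative over all tested genes. Among the survival genes 3 of 4 were negative, and among the BH3-only genes 4 of 5, while the effector Bak1 was positive (0.07). These are counts of genes and not of mice, and every interval crossed 0, so no difference between the arms can be read from them. Signs held under every alternative for Bcl2l1, Mcl1, Bid and Bcl2l11, and each of the other 6 turned when a single library was left out.

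The arms were next compared by summed transcript levels in each library, which do not measure the proteins or their activity. The 4 survival members summed to 179, 195 and 207 FPKM in knockouts, against 231, 208 and 202 FPKM in wild type. The 6 death members, Bak1 and the BH3-only genes, summed to 178, 171 and 141 FPKM in knockouts, against 154, 173 and 153 FPKM in wild type. Survival over death came to 1.01, 1.14 and 1.47 in knockouts and to 1.503, 1.20 and 1.32 in wild type. Knockout replicates 1 and 2 had the lowest ratios and knockout replicate 3 lay above 2 of the wild types. Means were 1.21 ± 0.235 in knockouts and 1.34 ± 0.154 in wild type, a difference of -0.134 with a pooled SD of 0.199. That SD is of single libraries, and the difference was not tested. Summed survival FPKM differed by -19.8 (pooled SD 14.7) and summed death FPKM by 3.14 (pooled SD 16.0). With Bax and Bbc3 counted among the death genes, the ratio was 0.850, 0.924 and 1.17 in knockouts. In wild type it was then 1.21, 0.993 and 1.08, so the ratio depends on which genes are counted.

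A pair of genes made up most of either sum. Mcl1 accounted for between 72.9% and 78.2% of the survival transcripts, and Bak1 for between 63.4% and 74.3% of the death transcripts. Mcl1 over Bak1 was 0.989, 1.23 and 1.62 in knockouts and 1.66, 1.21 and 1.58 in wild type. Knockout replicate 1 was thus the only library with more Bak1 than Mcl1, since it held the lowest Mcl1 and the highest Bak1 of the 6. Within the BH3-only genes Bad made up 56.7% to 63.1% of the summed transcript.

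**Figure D4:**
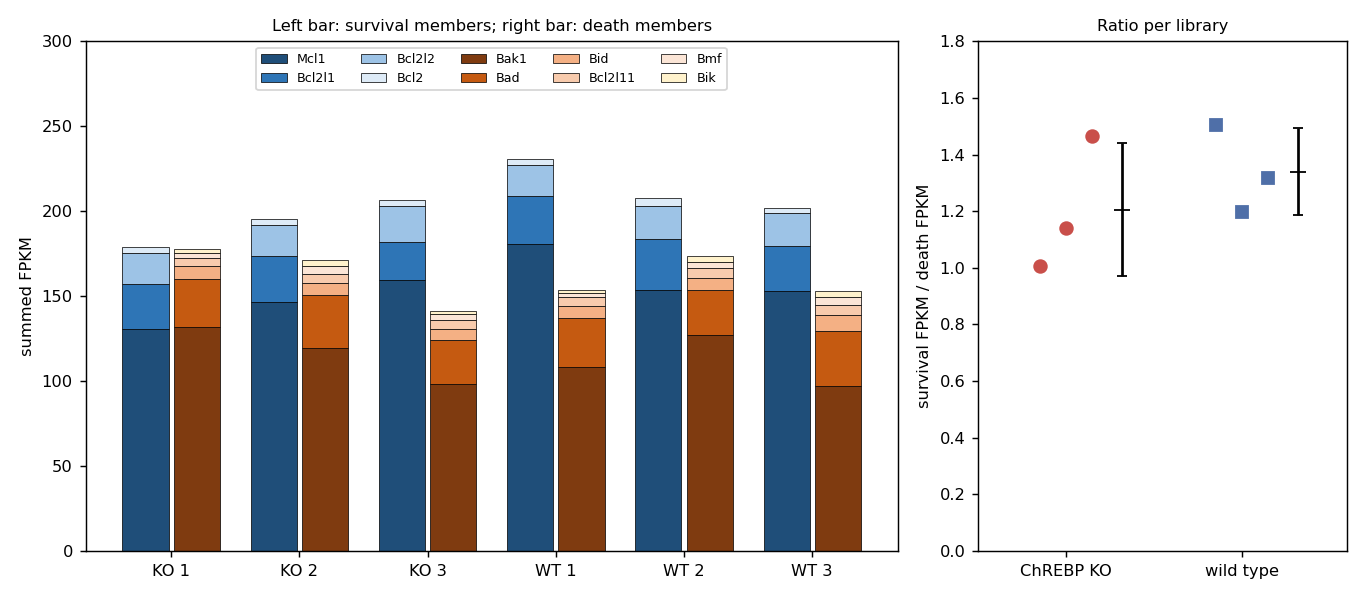
Left, summed FPKM of the 4 survival members (blue stack) and the 6 death members (brown stack) in each library; right, their ratio per library with mean ± SD (n = 3 each). Mcl1 and Bak1 form most of each stack, and the ratio runs from 1.01 in knockout replicate 1 to 1.503 in wild-type replicate 1.

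Over all 6 libraries the order of mean levels was Mcl1 (154 FPKM), Bak1 (114), Bad (28.9), Bcl2l1 (26.8), Bcl2l2 (19.3), Bid (7.46), Bcl2l11 (5.37), Bcl2 (3.65), Bmf (3.57) and Bik (2.68). Mcl1 stood above 96.7% and Bik above 16.3% of tested genes. The ranges of Mcl1 and Bak1 overlapped, though Mcl1 was higher in 5 of 6 libraries. Bad and Bcl2l1 overlapped too, with Bad higher in 5 of 6. From Bcl2l1 down to Bcl2l2, Bid and Bcl2l11 each step was free of overlap, as was that from Bak1 to Bad. Bcl2l11, Bcl2, Bmf and Bik overlapped from each to the next. Within libraries, Bcl2l11 lay above Bcl2 and Bmf above Bik in 6 of 6, and Bcl2 above Bmf in 4 of 6.

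Pairs of members were compared across the libraries. Of 45 pairs of members over the 6 libraries, 25 had a positive Pearson r on log2(FPKM + 1), and 1 pair reached an unadjusted exact permutation p under 0.05. That pair was Bmf and Bik, with r = 0.86 (exact two-sided permutation p = 0.0222) and Spearman's rho = 0.89 (exact permutation p = 0.0333). Adjusted over the 45 pairs these became 0.969 and 0.926 (Benjamini-Hochberg, exact permutation), above 0.05. With 6 libraries the smallest exact permutation p is 0.00278, which for a lone pair adjusts to 0.125 over 45 pairs, so no single pair could have passed the correction and its failure says little about the relation. Without knockout replicate 2 and wild-type replicate 3, r was 0.73. The next largest r were those of Bcl2 and Bad (-0.76), Bad and Bmf (0.76), and Bcl2l1 and Bcl2l2 (-0.75). Without the 2 libraries farthest from the median of the first gene of each pair, these became -0.26, -0.78 and -0.80. The sign for Bad and Bmf thus turned. Library composition is shared by both genes of a pair.

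No other BCL2 family gene was called either. Of 15 further family genes 11 were high enough to test, limma called 0, and 0 had an unadjusted p under 0.05, with 6 positive and 5 negative log2 fold changes and a median of 0.02. Bbc3, the p53-induced BH3-only gene PUMA, read 3.52, 6.31 and 4.55 FPKM in knockouts and 3.12, 6.13 and 3.36 FPKM in wild type (log2 fold change 0.17, SE 0.25). Bcl2l12 averaged 11.04 ± 1.095 FPKM in knockouts and 9.50 ± 1.09 FPKM in wild type. It was the single gene without overlap among the 11 tested, beside 8.67% of all tested genes. Over all 5 lists of other family and pathway genes, 4 of 54 tested genes had no overlap. The mitophagy receptor gene Bnip3 averaged 16.0 ± 0.456 FPKM in knockouts and 19.7 ± 4.71 FPKM in wild type. Its relative Bnip3l averaged 40.6 ± 2.74 FPKM in knockouts and 37.5 ± 2.62 FPKM in wild type. Bok, an effector-like gene, averaged 9.50 ± 2.17 FPKM in knockouts and 7.96 ± 2.10 FPKM in wild type. The neuronal BH3-only gene Hrk was listed at 0 in all 3 knockouts and at 0.01 FPKM in each wild type, too low to test. Bcl2a1a, Bcl2l10 and Bcl2l15 were also too low, and the near-identical Bcl2a1 copies may share reads.

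Downstream of the mitochondrion the caspase genes did not pass either. All 9 genes of the apoptosome and caspase list were tested, 0 were called by limma and 0 had an unadjusted p under 0.05, with 4 positive and 5 negative log2 fold changes and a median of -0.02. Casp6, an effector caspase gene, averaged 12.1 ± 0.85 FPKM in knockouts and 11.2 ± 0.215 FPKM in wild type. Apaf1, the apoptosome scaffold, averaged 6.20 ± 0.778 FPKM in knockouts and 7.24 ± 1.51 FPKM in wild type. The nuclease gene Endog was at 7.22 ± 0.613 FPKM in knockouts and 6.18 ± 0.955 FPKM in wild type, and Aifm1, the apoptosis-inducing factor gene, at 19.3 ± 2.31 FPKM in knockouts and 21.3 ± 2.24 FPKM in wild type.

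Inhibitor of apoptosis genes had the highest median of the lists, 0.13, with 4 of 5 positive, and limma called 0 of 5, with 0 at an unadjusted p under 0.05. Birc3, which encodes cIAP2, a ubiquitin ligase of TNF signalling, read 27.7, 35.3 and 29.9 FPKM in knockouts, all above the 24.6, 26.4 and 27.1 FPKM of wild type. Its log2 fold change was 0.24 (SE 0.11, 95% interval -0.02 to 0.49), and 4.67% of tested genes had a smaller p. Without knockout replicate 2 the log2 fold change of Birc3 was 0.14. Birc5, the survivin gene, which is also a gene of dividing cells, read 25.3, 22.9 and 16.4 FPKM in knockouts, against 16.4, 15.8 and 18.3 FPKM in wild type (log2 fold change 0.32, SE 0.16). Here 2 knockouts stood above the wild types and the third did not, and without knockout replicate 1 the log2 fold change was 0.19. Birc6 averaged 13.0 ± 3.01 FPKM in knockouts and 14.6 ± 1.26 FPKM in wild type, with knockout replicate 2 at 9.54 FPKM. Its log2 fold change of -0.18 became 0.012 without that library. Xiap, whose product inhibits caspases directly, averaged 20.8 ± 1.22 FPKM in knockouts and 19.1 ± 2.65 FPKM in wild type.

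For the death receptor arm, which feeds into Bid, 8 of 9 genes were tested, limma called 0 and 0 had an unadjusted p under 0.05 (5 positive, 3 negative, median 0.03). The adaptor gene Tradd averaged 54.0 ± 5.74 FPKM in knockouts and 49.0 ± 1.78 FPKM in wild type, and Fadd 10.2 ± 0.631 FPKM in knockouts and 9.42 ± 0.835 FPKM in wild type. Cflar, the caspase-8 inhibitor gene, averaged 15.5 ± 0.862 FPKM in knockouts and 14.97 ± 0.377 FPKM in wild type. Casp8 itself read 47.2, 35.8 and 33.3 FPKM in knockouts and 37.3, 36.7 and 36.1 FPKM in wild type, with knockout replicate 1 apart from the rest. Its log2 fold change of 0.06 became -0.09 without that library. Fasl was below the filter.

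The 21 binding partners and regulators of the members were all tested, with 12 positive and 9 negative log2 fold changes, a median of 0.00 and 0 called by limma. Knockout and wild-type values did not overlap for 2 of the 21 (Ywhah and Usp9x), beside 8.67% of all tested genes. Ywhah alone had an unadjusted p under 0.05 (1 of 21), beside 3.40% of all tested genes. It encodes a 14-3-3 protein, of the group that retains phosphorylated BAD, and read 202, 183 and 179 FPKM in knockouts, all above the 162, 164 and 148 FPKM of wild type (log2 fold change 0.25, SE 0.10, limma adjusted p = 0.9995), with a smaller p in 2.21% of tested genes. The unadjusted limma p of Ywhah was above 0.05 after rescaling to equal FPKM totals, under quantile normalization, and without knockout replicate 1 or any one of the wild types. Its log2 fold change stayed between 0.19 and 0.28. Usp9x, whose product removes ubiquitin from MCL1, read 17.6, 14.3 and 16.9 FPKM in knockouts, all below the 18.2, 19.0 and 19.7 FPKM of wild type (log2 fold change -0.21, SE 0.11, limma adjusted p = 0.9995), and the log2 fold change was -0.13 without knockout replicate 2. Foxo1, a transcription factor gene, averaged 11.02 ± 1.103 FPKM in knockouts and 12.3 ± 0.880 FPKM in wild type. Dynll2, the dynein light chain gene whose product tethers BMF, averaged 54.9 ± 5.73 FPKM in knockouts and 59.9 ± 2.31 FPKM in wild type.

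**Figure D5:**
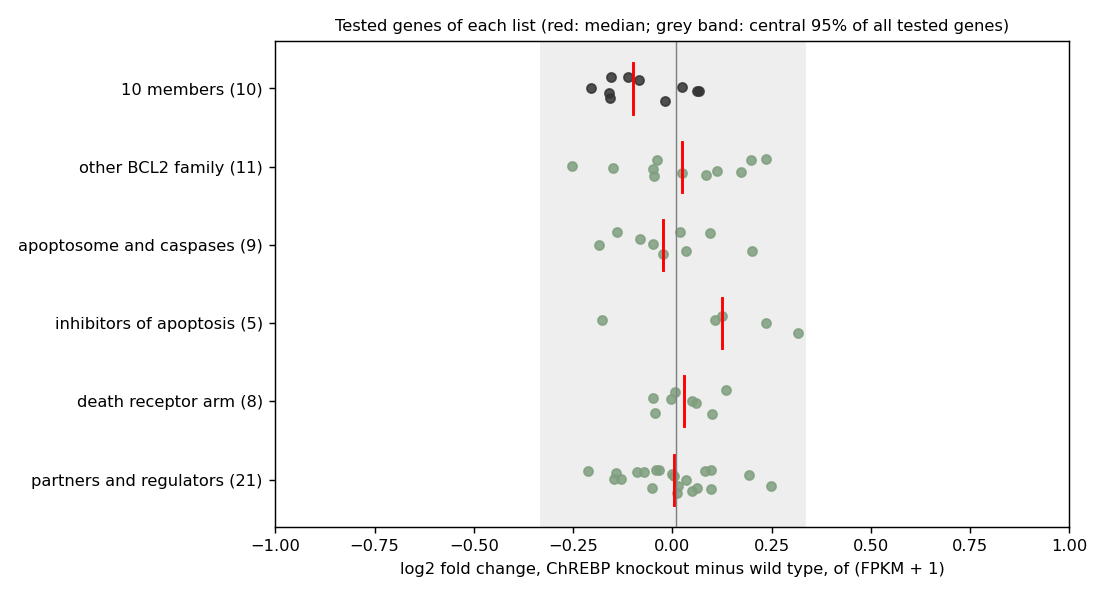
Log2 fold change of every tested gene in the member list and 5 further lists; red lines are medians and the grey band holds the central 95% of all tested genes, from -0.33 to 0.34. All of the 10 members and all 54 tested genes of the other lists lie inside the band.

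Markers of other cell types varied from library to library, and limma called 0 of them. The 4 plasma cell markers summed to 275, 451 and 182 FPKM in knockouts and to 406, 377 and 452 FPKM in wild type, with all 4 log2 fold changes negative and 0 called. For T cells the sums were 12.6, 18.2 and 10.7 FPKM in knockouts and 15.8, 20.1 and 15.3 FPKM in wild type, with all 5 tested markers negative. The 5 smooth muscle markers summed to 2632, 2485 and 3832 FPKM in knockouts and to 2326, 3127 and 2631 FPKM in wild type, with all 5 positive. The 4 fibroblast markers summed to 427, 387 and 408 FPKM in knockouts and to 366, 363 and 425 FPKM in wild type, with all 4 positive, and all 3 tested red blood cell markers were positive too. Neutrophil markers, again all 4 positive, summed to 17.8, 8.5 and 6.17 FPKM in knockouts and to 5.66, 7.34 and 6.38 FPKM in wild type. Knockout replicate 1 had the highest neutrophil sum, through S100a8 (6.04 FPKM, at most 1.10 elsewhere) and S100a9 (6.55 FPKM, at most 1.99 elsewhere). Cxcr2 (2.74 FPKM) and Csf3r (2.51 FPKM) were not highest there, reaching 3.43 and 2.58 FPKM in other libraries. That library also had the lowest Mcl1 and the highest Bak1 and Casp8. Knockout replicate 3 was lowest for plasma and T cell markers, highest for smooth muscle, and lowest of the 6 for Bcl2l1, Bid and Bad. It was also highest for Bcl2l2, and wild-type replicate 1 was likewise lowest for 3 members. Of the 3 adipocyte markers in the table, Adipoq and Plin1 stayed below 1 FPKM in every library, while Fabp4, which capillary endothelium and macrophages also express, lay between 25.03 and 31.9 FPKM. Whether these differences in composition bear on the members was not tested.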

How the data were processed

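Distal colon RNA from 3 ChREBP knockout and 3 wild-type mice was compared, with groups from the genotype label. The authors deposited 1 table of FPKM values per gene and library; HISAT2, RSEM and mm39 are named in the submitters' processing notes, with their versions and filters not given in the sources used here. Libraries were made from poly-A RNA with random primers, per the labels' protocols. The 13247 genes that reached 1 FPKM in 3 or more libraries were tested on log2(FPKM + 1) with limma 3.58.1 in R 4.3.3 (mean-variance trend, genotype as sole term, two-sided, Benjamini-Hochberg over all tested genes, 4 residual degrees of freedom). Counts were not analysed here. The code was tested on simulated data.

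Library depth came from short non-coding genes, in which FPKM moves in steps of whole reads; 68.0% to 87.4% of 118 to 169 values per library fell within 0.05 of a whole number. Reads per member are estimates from GENCODE M21 transcript lengths and cover counting error only. The series' design text gives 3 mice per group, and each library has a sample entry of its own. A gene of the apoptosome list and one of the B cell list are not reported here. The members and lists were chosen with earlier results of these data known. The named genes are all members, Mlxipl, Bax, Bbc3 and, of each other list, up to 4 tested genes of smallest p; others are named where a marker, an overlap or a value below the filter called for it. Correlations used exact permutation over 6 libraries. Alternatives were pseudocounts, no filter, rescaling, quantile normalization, other variance models, a replicate block and leaving out each library. Python 3.11.15 and matplotlib 3.10.9 were used for tables and figures.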

Additional observations from a re-analysis of the deposited data

How the results depend on the processing

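Under all 15 alternatives limma called 0 of the 10 members, and the smallest adjusted p of any member was 0.811. Sign changes of members came solely from leaving out 1 library. The log2 fold changes then ran from -0.293 to 0.079 for Bcl2, from -0.041 to 0.058 for Bcl2l2, from -0.027 to 0.184 for Bak1, from -0.088 to 0.063 for Bad, from -0.083 to 0.204 for Bmf and from -0.438 to 0.036 for Bik. Those of Mcl1 (-0.23 to -0.08), Bcl2l1 (-0.21 to -0.07), Bid (-0.27 to -0.11) and Bcl2l11 (-0.17 to -0.05) kept their sign. Casp8 ran from -0.087 to 0.158 and Birc6 from -0.299 to 0.012. Over all genes the count called was 2, and 0 to 1 when a library was left out. Without Mcl1 the ratio of survival to death transcripts averaged 0.298 in knockouts and 0.320 in wild type, because Mcl1 leaves the numerator.

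With the replicate number of the titles as a replicate block, 0 genes were called by limma, against 2 without it, and 504 had an unadjusted p under 0.05, against 450; the cause was not tested. The numbers were not treated as pairing the samples, since deviations from the group means correlated at 0.27, -0.10 and 0.06 for replicates 1 to 3, and knockout replicate 2 correlated best with wild-type replicate 3 (0.25). With 3 mice per group the median half-width of the members' 95% intervals was 0.28 on the log2 scale.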
